A study of Drosophila melanogaster with 2 samples.

Results

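The small nuclear RNA (snRNA) and small nucleolar RNA (snoRNA) genes of Drosophila melanogaster were set against the binding map of Atf6 in whole embryos. The members were the 301 genes that the Ensembl annotation classes as snRNA or snoRNA on the nuclear chromosome arms, of 18277 genes of every class. They comprised 32 snRNA genes and 269 snoRNA genes. Embryos of 0 to 24 h were collected from transgenic flies in which Atf6 was fused to enhanced green fluorescent protein. Bound DNA was recovered with an antibody against the fluorescent protein and sequenced (ChIP-seq), in 1 group of 2 biological replicates. There was no second genotype, stage or treatment, so no condition was compared. Whole embryos mix every tissue, and the labels do not state which cells made the fusion protein or its level against native Atf6. A peak in few cells therefore cannot be told apart from weak binding in many.

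A gene was taken to have a peak when the summit of a peak in the thresholded list of both replicates lay within 500 bp of its start. That list held 5846 peaks on the dm6 build. The value given for a peak is the authors' signal score, whose scale is not stated in the sources used here. It ran from 2.11 to 4478 in the list, with a median of 102, and ranks peaks only within 1 list. The separate lists of the replicates held 4249 and 3424 peaks, and a longer list of both replicates held 105892 ranked regions, most of them weak. The number of sequenced reads is unknown. All intervals are 95% Wilson intervals of a share of genes and cover counting error only. They treat genes as independent, although many snoRNA genes lie together in 1 longer gene and neighbours can share a peak. For snoRNA genes they are therefore likely too narrow.

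Spliceosomal snRNAs form the RNA cores of the particles that remove introns, whereas U7 snRNA processes histone mRNA ends and 7SK RNA holds the elongation kinase P-TEFb in check. Drosophila snRNA genes share a proximal sequence element, bound by the complex SNAPc, that directs RNA polymerase II at most of them and RNA polymerase III at U6, U6atac and 7SK. Most snoRNAs guide modification of ribosomal RNA: box C/D RNAs direct methylation, and H/ACA RNAs direct conversion of uridine to pseudouridine. Fly snoRNAs are largely cut from introns, so they depend on the promoter of a host gene. Atf6 is a membrane-tethered basic leucine zipper factor that is released during endoplasmic reticulum stress.

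The sequences that bear on the snRNA results are the promoters themselves. For each class with a peak, the promoter of the gene of highest signal is followed by that of a gene of the same class without a peak. U6:96Ab and U6:96Ac tie on 1 shared peak, and the former is shown as the first by name, although the summit is nearer to the latter. Each runs 5′ to 3′ from 100 bases before the start to 20 bases after it, on the strand of the gene, read from the RefSeq copy of the dm6 assembly. Capitals mark the 8-base word ATTCNCAA, used here to find the core of the proximal sequence element.
snRNA:7SKa (chr3R:7474977-7475096, minus strand): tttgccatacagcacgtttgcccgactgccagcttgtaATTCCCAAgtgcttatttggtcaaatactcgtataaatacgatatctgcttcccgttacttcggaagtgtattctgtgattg
snRNA:7SKb (chr3R:23432769-23432888, plus strand): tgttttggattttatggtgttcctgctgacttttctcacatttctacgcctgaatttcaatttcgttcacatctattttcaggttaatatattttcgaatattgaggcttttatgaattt
snRNA:U1:95Ca (chr3R:23859611-23859730, minus strand): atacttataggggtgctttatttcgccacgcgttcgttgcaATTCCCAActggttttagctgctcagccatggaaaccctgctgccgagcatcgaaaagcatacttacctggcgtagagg
snRNA:U1:21D (chr2L:901635-901754, minus strand): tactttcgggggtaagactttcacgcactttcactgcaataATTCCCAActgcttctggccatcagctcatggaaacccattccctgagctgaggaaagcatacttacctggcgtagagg
snRNA:U2:34ABb (chr2L:13215739-13215858, plus strand): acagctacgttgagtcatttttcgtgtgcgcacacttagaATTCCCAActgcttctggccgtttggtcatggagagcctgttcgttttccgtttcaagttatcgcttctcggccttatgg
snRNA:U2:14B (chrX:16254572-16254691, plus strand): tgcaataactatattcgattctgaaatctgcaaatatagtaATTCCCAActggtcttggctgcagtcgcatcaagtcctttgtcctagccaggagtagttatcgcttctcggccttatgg
snRNA:U4:39B (chr2L:21215159-21215278, minus strand): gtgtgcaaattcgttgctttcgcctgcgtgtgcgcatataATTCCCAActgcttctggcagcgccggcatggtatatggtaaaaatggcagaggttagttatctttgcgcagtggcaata
snRNA:U4:25F (chr2L:5565519-5565638, plus strand): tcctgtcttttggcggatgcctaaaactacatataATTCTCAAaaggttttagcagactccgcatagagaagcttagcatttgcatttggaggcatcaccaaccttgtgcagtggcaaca
snRNA:U5:63BC (chr3L:3090701-3090820, plus strand): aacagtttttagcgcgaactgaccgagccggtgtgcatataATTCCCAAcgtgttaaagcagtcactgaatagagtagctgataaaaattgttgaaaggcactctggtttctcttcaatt
snRNA:U5:14B (chrX:16254098-16254217, minus strand): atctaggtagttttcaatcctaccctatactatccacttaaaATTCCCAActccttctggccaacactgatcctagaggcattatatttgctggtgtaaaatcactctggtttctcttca
snRNA:U6:96Ab (chr3R:24556592-24556711, plus strand): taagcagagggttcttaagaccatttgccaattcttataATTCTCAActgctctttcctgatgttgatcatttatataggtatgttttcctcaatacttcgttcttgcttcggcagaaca
snRNA:U6:96Aa (chr3R:24555988-24556107, plus strand): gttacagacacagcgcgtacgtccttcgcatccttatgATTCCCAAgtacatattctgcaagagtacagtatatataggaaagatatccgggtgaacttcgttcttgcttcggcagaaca

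The word stood in the promoters of genes with and without a peak alike; gene names are given from here on without the prefix snRNA or snoRNA. Between 250 bases before the start and 50 after it, on either strand, 31 of 32 snRNA genes held it (96.9%), as did 24 of 269 snoRNA genes (8.92%) and 836 of 13968 protein-coding genes (5.99%). It was present in 8 of 8 snRNA genes with a peak and in 23 of 24 without one (95.8%). On the strand of the gene its first base lay 56 to 65 bases before the start in all 31. The exception was 7SKb. The word therefore did not separate snRNA genes with a peak from those without.

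Peaks lay at 8 of the 32 snRNA genes (25.0%, interval 13.3 to 42.1). By the same rule, 2666 of 13968 protein-coding genes had a peak at the gene start, or 19.1%, which lies inside that interval. Of all bases of the arms, 3.92% lay within 500 bp of a summit. These bases include chromosome Y, which had 0 peaks, and the end of 3L, where the last peak ended at base 23095604 of 28110227. Such stretches lower the share of bases. The strongest peaks of the 8 genes numbered 7, with signals from 62.6 to 214 and a median of 103, close to the median of the whole list. U2:34ABb and U4:39B each had 2 summits within 500 bp, of which only the stronger was counted. In the separate lists, 7 of the 32 genes had a peak in replicate 1, where 14.6% of protein-coding genes did, and 5 in replicate 2, where 12.0% did. Among the genes with a peak, 7SKa, U1:95Ca, U4:39B and U5:63BC, had one in both separate lists, and each of the other genes had one in 1 of them. The count thus rested in part on replicate 1, since the list of replicate 2 alone gave 5.

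The classes were represented by 1 or 2 genes each. U1 had peaks at 2 of 5 genes, U6 at 2 of 3, 7SK at 1 of 2, U4 at 1 of 3, U2 at 1 of 6 and U5 at 1 of 7. The 1-gene classes U11, U12, U4atac and U6atac, all of the minor spliceosome, had none, and neither did U7 nor LU. With so few genes a class, no class could be set apart from another.

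The highest signal was at 7SKa (chr3R:7474553-7474996, minus strand), one of the genes for the P-TEFb-binding RNA. Its peak (chr3R:7474547-7474942) had a signal of 214 and ranked 951 of 5846, with 87.5 and 113 in the lists of replicates 1 and 2. The summit lay inside the transcribed part, 251 bp after the start, and at 172 bp and 253 bp after it in the replicates. The peak thus covered most of the gene rather than its promoter. The other gene of the class, 7SKb, had no region in the ranked list of both replicates, and only a weak one of 7.95 in that of replicate 1. By edit distance over their whole length the genes were 46.8% identical, a value that does not mark them as copies.

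The next was U1:95Ca (chr3R:23859467-23859630, minus strand), a gene for the RNA that pairs with the 5′ splice site. Its peak (chr3R:23859345-23859740) had a signal of 171, rank 1367, with 64.2 and 106 in replicates 1 and 2. The summit lay 87 bp into the gene in the joint list, 15 bp before the start in replicate 1 and 103 bp after it in replicate 2. A weaker peak of 62.6, rank 5264, lay at U1:82Eb (chr3R:4947933-4948096, minus strand; peak chr3R:4947771-4948166). It was thresholded in replicate 1 at 52.5 but reached only a ranked 4.44 in replicate 2, and the conservative list lacked it. The other U1 genes had weak regions: 25.2 at U1:95Cb (14.8 and 16.1) and 7.69 at U1:95Cc, with none in the joint ranked list at U1:21D, where the replicates gave 7.84 and 6.75.

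U5 RNA aligns the exons for joining, and its peak lay at U5:63BC (chr3L:3090801-3090923, plus strand; peak chr3L:3090637-3091032). The signal was 140, rank 1815, with 77.9 and 69.1 in the replicates and a summit 34 bp after the start. Of the other U5 genes, U5:35D had a ranked signal of 29.3 and U5:23D one of 14.5, with 23.2 and 2.77 in replicate 2 and none in replicate 1. U5:14B, U5:34A, U5:38ABa and U5:38ABb had no region in the joint ranked list, although replicate 1 listed 12.5 at U5:38ABa. One member of the class was thus bound in both replicates while the others stayed far below it.

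U2 RNA pairs with the branch point, and 1 of its genes, U2:34ABb (chr2L:13215839-13216030, plus strand; peak chr2L:13215697-13216092), had a signal of 101, rank 2981. Replicate 2 listed a peak of 61.9 there, whereas replicate 1 gave only a ranked 35.0. This was the only bound snRNA gene within 1000 bp of a coding start, 489 bp from that of kek4. None of U2:14B, U2:34ABa, U2:34ABc, U2:38ABa and U2:38ABb had a region in the joint ranked list; the separate ranked lists gave 3.63 in replicate 2 at U2:34ABa and 12.2 in replicate 1 at U2:38ABb. U4 RNA, which pairs with U6 before activation, was bound at U4:39B (chr2L:21215036-21215178, minus strand; peak chr2L:21214945-21215340), with a signal of 78.2, rank 4258. The replicates gave 51.0 and 41.1 there. U4:25F and U4:38AB had no ranked region.

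The U6 genes, which encode the catalytic RNA of the spliceosome, stand in a tandem cluster. U6:96Ab (chr3R:24556692-24556798) and U6:96Ac (chr3R:24557215-24557321), both on the plus strand, shared 1 peak (chr3R:24556914-24557309). Its signal was 103, rank 2869, with 39.0 in the list of replicate 1. The summit lay 103 bp before the start of U6:96Ac and 420 bp after that of U6:96Ab, so it was nearer to the former. Replicate 2 had no thresholded peak, only a ranked region of 55.5, 9 bp after the start of U6:96Ac, and none within reach of U6:96Ab. U6:96Aa had only a ranked signal of 25.9 (17.1 and 10.5).

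**Figure D1:**
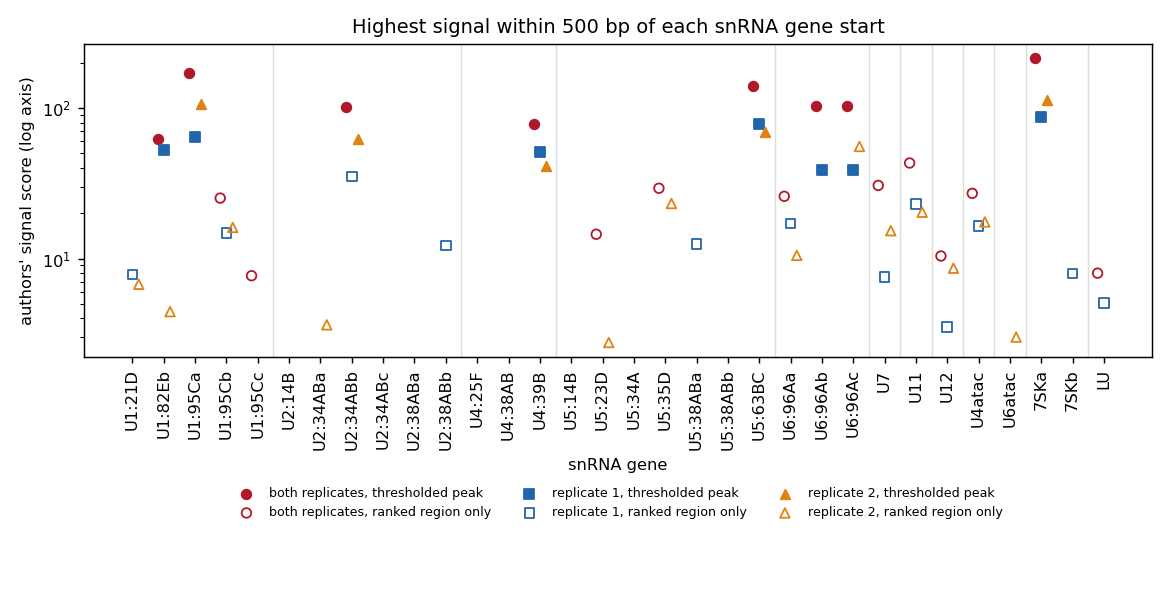
Signal of the strongest region within 500 bp of the start of each snRNA gene (log axis), for the joint list and each replicate's own lists, with thresholded peaks and merely ranked regions marked apart. The signals of thresholded peaks in the joint list ran from 62.6 to 214, above every merely ranked one there (43.1 at most); the lists have separate scales.

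Of all snRNA genes without a peak, U11 reached the highest ranked signal, 43.1, with 23.1 and 20.3 in the replicates. Among the other classes with 1 gene, it was followed by U7 at 30.6 (7.57 and 15.3), U4atac at 27.1 (16.4 and 17.5), U12 at 10.4 (3.51 and 8.63) and LU at 8.0 (5.05 in replicate 1 alone). U6atac had none in the joint list and 3.01 in replicate 2. Among snRNA genes the lowest thresholded peak, 62.6, thus lay above the highest region that missed the threshold. The authors' threshold was by reproducibility, not by signal. Among snoRNA genes the 2 overlapped, with a peak as low as 26.8 and a region without a peak as high as 92.2. Any ranked region at all lay at 18 of 32 snRNA genes (56.2%), against 73.9% of protein-coding genes.

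Several snRNA genes are near-identical copies, and how the authors treated reads that match several places is not given in the sources used here. Of 9 genes whose every 32-base word occurs once in the assembly, 1 had a peak and 3 had no ranked region. Of 23 genes with repeated words, 7 had a peak and 11 had no ranked region. U1:95Ca, U1:95Cb and U1:21D are identical, as are U2:34ABb and U2:34ABc, and the 3 U6 genes. Within 100 bp of the summit, 100% of words were unique at 7SKa and at the shared U6 peak, 72.9% at U1:82Eb, 68.2% at U4:39B and 64.7% at U5:63BC, but 14.1% at U1:95Ca and at U2:34ABb. Which copy was bound is therefore uncertain at the last pair, and the part of copy number in the missing regions was not tested.

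Over the whole 1-kb window searched, unique words made up a median of 88.5% at snRNA genes with a peak (81.2 to 100) and 93.0% at those without (45.6 to 100). The lowest values were 45.6% at U2:38ABa, 47.2% at U2:34ABc and 49.1% at U2:38ABb, none of which had a peak.

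In the joint list, summits at snRNA genes lay mostly inside the gene. At 6 of the 8 genes the strongest summit was within the transcribed part. Replicate 1 alone put it before the start at U1:95Ca (−15 bp) and U2:34ABb (−6 bp). Between replicates 1 and 2 it moved from 94 to 9 bp at U4:39B and from 118 to 18 bp at U5:63BC. Except at 7SKa, these inside summits lay in partly repeated sequence, with 14.1% to 72.9% of words within 100 bp unique. The shared U6 summit counted for both of its genes, before the start of 1 and past the end of the other. The median over the 8 genes was 71.5 bp after the start. At protein-coding genes the median was 110 bp before the start (−110), and 73.7% of 2666 summits were upstream. A summit 0 to 150 bp after the start was found at 5 of 8 snRNA genes (62.5%) and at 16.5% of protein-coding genes. Peaks were typically 396 bp wide, and at 6 of the 8 genes the peak also covered the whole word ATTCNCAA. At 7SKa and U6:96Ab it did not reach the word.

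**Figure D2:**
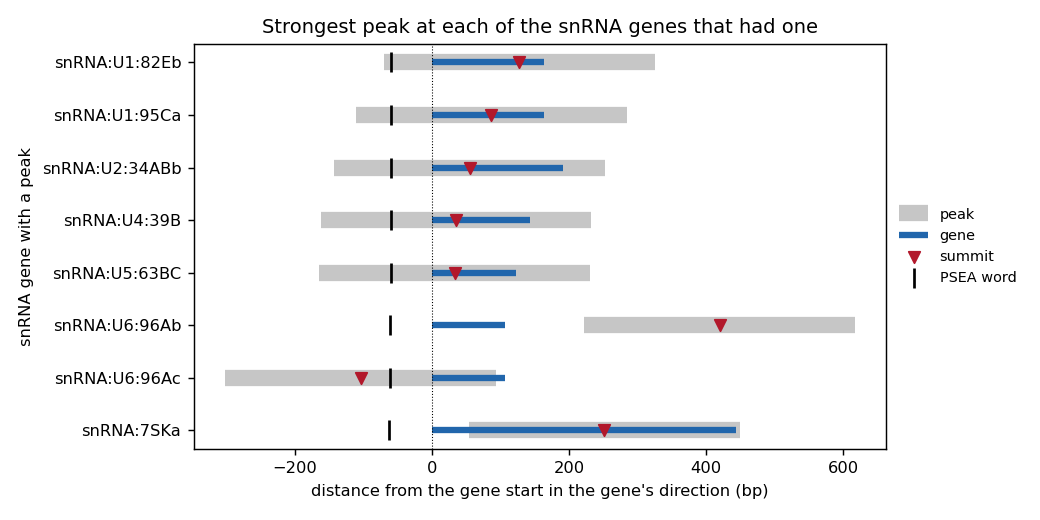
Position of each snRNA peak (bar) and its summit relative to the gene start (bp, the direction of the gene to the right), with the gene and the promoter word marked, for the 8 genes with a peak. The U6 rows show the same peak. The summits lay between −103 and 420 bp, and at 6 of 8 genes the summit fell inside the gene.

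**Figure D3:**
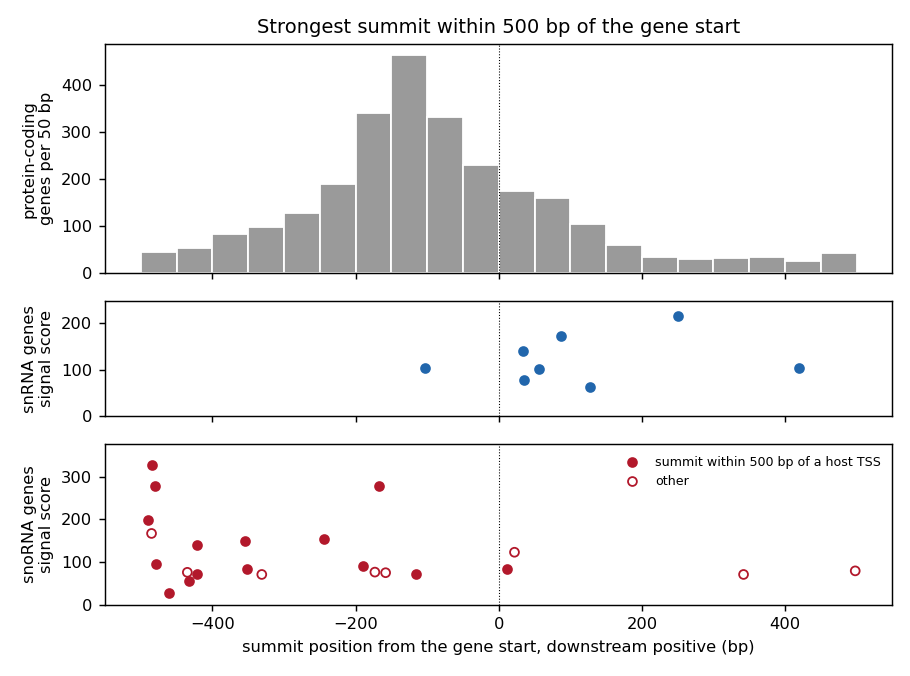
Position of the strongest summit from the gene start in bp (negative is upstream): number of protein-coding genes per bin, and signal score against position for each snRNA and snoRNA gene. Filled snoRNA marks are summits at a host start. The medians are −110 bp for protein-coding, 71.5 bp for snRNA and −351 bp for snoRNA genes.

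The bases under some of the snRNA summits are printed so that what lay under these peaks can be read, beside the promoters above. The summits shown have the highest GC content of those at snRNA genes and do not represent the others. Each has 81 bases on the strand of the gene, with the summit base in capitals.
snRNA:7SKa (chr3R:7474705-7474785, minus strand): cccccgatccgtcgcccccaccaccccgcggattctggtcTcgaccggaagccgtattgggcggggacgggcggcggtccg
snRNA:U1:95Ca (chr3R:23859503-23859583, minus strand): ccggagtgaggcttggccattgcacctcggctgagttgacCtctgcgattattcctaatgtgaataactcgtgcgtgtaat
snRNA:U6:96Ac (chr3R:24557072-24557152, plus strand): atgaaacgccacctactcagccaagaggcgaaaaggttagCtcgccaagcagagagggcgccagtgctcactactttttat

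The GC content of these stretches was 75.3% at 7SKa, 50.6% at U1:95Ca and 51.9% at U6:96Ac. At the summits not printed it was 48.1% at U1:82Eb, 43.2% at U4:39B, 38.3% at U5:63BC and 35.8% at U2:34ABb. Within 50 bp of the 7 snRNA summits the median GC content was 46.5% (35.6 to 72.3), against 35.6% for all 5846 peaks. The bZIP core ACGT, searched as letters on both strands, was within 50 bp of 0 of 7 snRNA summits, 5 of 19 snoRNA summits (26.3%) and 991 of all 5846 (17.0%). The longer word TGACGTGG was at 0 snRNA summits and 5 of all peaks (0.0855%). In promoters of 250 bases before to 50 after the start, ACGT was in 12 snRNA genes (37.5%), 5 of the 8 with a peak and 7 of the 24 without, against 48.3% of protein-coding genes. These are matches of letters and mark no binding site.

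Core promoter words were counted in the same promoter windows, on both strands. TATAAA was in 46.9% of snRNA and 45.8% of protein-coding promoters. TATCGATA was in 0 snRNA, 3 snoRNA (1.12%) and 9.36% of protein-coding promoters, and GGTCACAC in 0, 1 and 7.69%. Within 50 bp of summits, TATCGATA was found at 3 of 19 snoRNA peaks (15.8%) and at 1.20% of all peaks.

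Distance from coding promoters was then used to separate the members. Of the 211 genes over 1000 bp from any protein-coding start site, 14 had a peak (6.64%, interval 3.99 to 10.8), whereas 2.14% of all bases that far away lay within 500 bp of a summit. This share, too, is lowered by the long stretches without any peak. The snRNA genes accounted for 7 of the 14, from 27 genes (25.9%, 13.2 to 44.7). The snoRNA genes gave 7 of 184 (3.80%, 1.85 to 7.64), an interval that includes the 2.14% of bases. All bound snRNA genes but U2:34ABb thus started over 1000 bp from a coding start. At 7SKa the margin was small, with the gene start 1215 bp and the summit 964 bp from the start of CG1142. The CG1142 promoter had a peak of its own with a signal of 692, against 214 at 7SKa. The list of replicate 2 alone gave 8 of the 211 genes and that of replicate 1 gave 11.

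Nearer to coding promoters, more snoRNA genes had a peak. Between 0 and 500 bp, 9 of 29 snoRNA genes had a peak (31.0%, 17.3 to 49.2), against 15.5% of bases. Beyond that and up to 1000 bp, 7 of 56 had one (12.5%, 6.19 to 23.6), against 5.52% of bases. For snRNA genes the counts were 1 of 3 and 0 of 2. The share of snoRNA genes with a peak fell with distance, as did that of bases.

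**Figure D4:**
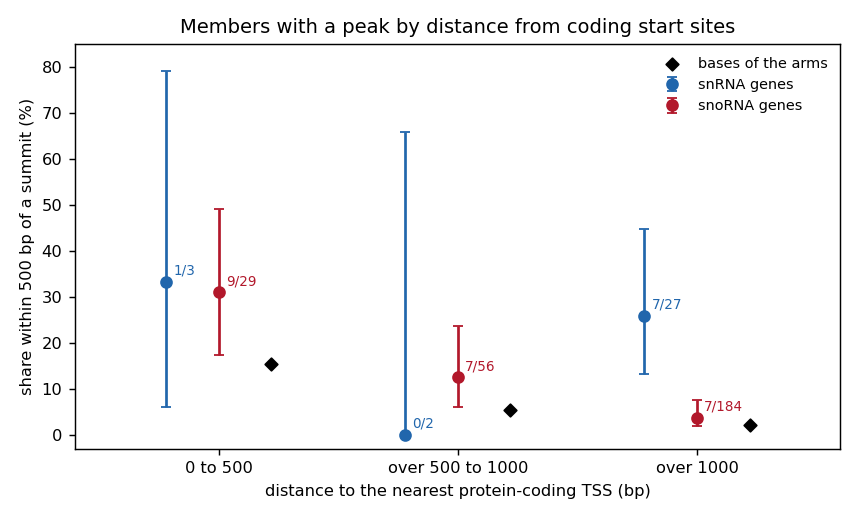
Percent of snRNA genes, of snoRNA genes and of all bases within 500 bp of a summit, in 3 bins of distance from the nearest protein-coding start site; bars are 95% Wilson intervals. Far from coding starts 25.9% of snRNA genes, 3.80% of snoRNA genes and 2.14% of bases qualified.

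Over all 269 snoRNA genes, 23 had a peak (8.55%, interval 5.76 to 12.5), below the 19.1% of protein-coding genes. The order turned when the distance was widened to 1000 bp, at 70 snoRNA genes (26.0%) against 23.3% of protein-coding genes. At 500 bp, the strongest peaks of the 23 genes numbered 19. Their signals ran from 26.8 to 327, with a median of 83.8 over the genes. The list of replicate 1 held 12 of the 269 genes and that of replicate 2 held 18, so that without replicate 2 the count fell to 12. In neither separate list were 9 of the 23. Their summits lay mainly upstream of the mature RNA, at 19 of 23 genes, and only 2 were inside it. At 15 of the 23 the summit lay within 500 bp of a start site of the host gene.

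By kind of RNA, peaks lay at 9 of 75 methylation guides (12.0%), 8 of 106 pseudouridine guides (7.55%), 4 of 21 orphan RNAs with no assigned target (19.0%) and 2 of 51 with other names (3.92%). None of 16 small Cajal body RNAs, which guide modification of snRNAs, had one (interval up to 19.4%). The interval of every kind included 8.55%, the share of all 269 snoRNA genes. The highest lower limit was 7.67%, for orphan RNAs, and the lowest upper limit was 13.2%, for those with other names. No kind could therefore be set apart from snoRNA genes as a whole. The 3 genes of U3, which is needed to cleave precursor ribosomal RNA, had none, with ranked signals of 46.0 at U3:54Aa, 47.6 at U3:54Ab and 26.3 at U3:9B.

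Host promoters had peaks more often than the snoRNA genes themselves. Of 92 host genes, 51 had a peak at a start site (55.4%, interval 45.3 to 65.2). Among protein-coding hosts it was 48 of 82 (58.5%), against 21.6% of all protein-coding genes by any start site. Among non-coding hosts it was 3 of 10 (30.0%), against 7.66% of all non-coding RNA genes. Ribosomal protein genes, a common source of snoRNA introns, were taken by names that begin with RpL or RpS. They were bound at 22 of 27 hosts (81.5%, 63.3 to 91.8), and the other coding hosts at 26 of 55 (47.3%). A ribosomal protein gene with another kind of name would count among the other coding hosts, here and below.

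The snoRNA genes were divided by the state of their host promoter. A peak lay at 20 of 126 snoRNA genes whose host promoter was bound (15.9%, 10.5 to 23.2) and at 1 of 121 whose host was not (0.826%, 0.146 to 4.53). Where the host was bound, peaks lay at 13 of 23 snoRNA genes up to 500 bp past the host start (56.5%), 3 of 34 from there to 1000 bp (8.82%) and 4 of 69 beyond (5.80%). Where it was not, the counts were 0 of 10, 0 of 17 and 1 of 94. The same summit can satisfy both rules when host start and snoRNA lie close. It did so at 15 of the 20 snoRNA genes with a peak in bound hosts, including all 13 within 500 bp, so the difference between bound and unbound hosts is largely set by the rule and shows no separate relation. Ribosomal protein hosts carried 10 of 69 snoRNA genes with a peak (14.5%, 8.07 to 24.7), other coding hosts 4 of 123 (3.25%), non-coding hosts 7 of 55 (12.7%) and genes outside any host 2 of 22 (9.09%).

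The highest snoRNA signal, 327, was at U49:66Da in RpL14, with 162 and 164 in the replicates; its summit lay 484 bp before the snoRNA, at the RpL14 promoter. Within Uhg4, a non-coding gene known as a snoRNA host, Or-aca5 and Psi28S-2949 shared the next peak, of 279 (160 and 129). Me18S-C1096 in RpL3 followed at 199 (95.8 and 107). Me28S-A774b in RpS12 had 153 (104 and 62.5), and Psi18S-1275 in RpS29 had 150 (68.3 and 83.2). All of these peaks were in both replicate lists and sat at host start sites.

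Further peaks of this kind were weaker. Psi28S-1232 in RpL17 had 139 (53.4 and 82.8), with a phenylalanine tRNA gene also starting within 500 bp of the summit. Psi18S-920 in RpL10Ab had 89.7 (50.4 and 51.0). Me28S-G3253 in RpS9 had 94.9, with ranked regions of 33.7 and 47.2 but no thresholded peak in either replicate. Me18S-A1576 and Me18S-G1620 in Uhg2 shared a peak of 83.8 near the start of Bka; replicate 2 listed 54.6 at the former, and replicate 1 had only a ranked 42.8. Each summit lay within 500 bp of its host's start, while replicate support varied.

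Of the 23 bound snoRNA genes, 8 had a summit away from any host start. Or-ACA6 lies in no host, 2959 bp from the nearest coding start, that of egr. Its peak of 167 was in both replicate lists (104 and 58.4), with a summit 485 bp before the RNA. Psi18S-176, a pseudouridine guide for 18S ribosomal RNA outside any host, had 123 (48.8 and 76.4). Its summit lay 22 bp into the gene, 29 and 27 bp in the replicates, with no other annotated start within 500 bp. Only 1 other snoRNA gene, Me18S-A1576, had its summit inside the gene, 12 bp from the start and near the start of its host.

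Others of this kind had lower signals. Or-CD9b in Nop60B had 79.4, but the summit, 498 bp past the start, lay 143 bp from that of ocm. Psi28S-2566 in an intron of CG3902 had 76.5, ranked only in the replicates (40.9 and 32.5). Psi18S-525a in Arpc2 had 76.0, with 53.4 thresholded in replicate 1 and 27.6 ranked in replicate 2. At hts-a, in an intron of hts, the signal was 75.1 (ranked 44.5 and 52.1), serine and valine tRNA genes started within 500 bp of the summit, and 68.2% of words near it were unique. None of these 4 genes had a thresholded peak in both separate lists.

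Over 1000 bp from coding starts, the 7 snoRNA genes with a peak included Or-aca5, Or-ACA6, Psi28S-2566, Psi18S-525a, hts-a and Me28S-C3227b. The last, in the non-coding host Uhg5, had the lowest snoRNA signal, 26.8 (ranked 7.46 and 16.3). Among genes near the 500-bp limit, Or-CD9b at 498 bp, Me18S-C1096 at 490 bp, Or-ACA6 at 485 bp and U49:66Da at 484 bp were just inside. Just outside were Or-CD13 at 512 bp (signal 167), Or-CD11a at 513 bp (171), abba-a at 517 bp (124) and Psi28S-2648 at 543 bp (94.8). The signals of these peaks were within the range of the counted ones.

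The hosts with the most snoRNA genes included bound and unbound ones. Arpc2, a subunit of the actin-nucleating complex, carried 17 snoRNA genes, of which 1 had a peak, and its own promoter had only a ranked 52.8. Uhg1 carried 16 and dom, a chromatin remodeller, 15; none of these had a peak, and the host signals were a ranked 61.1 and 59.7. The conservative list, unlike the main one, did hold the Uhg1 peak of 61.1, within 500 bp of Me28S-A3407a and Me28S-G3081a. RpS5a carried 14 with none bound, although its promoter had 129 (65.2 and 56.5). Some of the RpS5a genes lie in repeated sequence, with 56.2% of words unique in the 1-kb window of Psi18S-1854b. The median over snoRNA genes without a peak was 100%. Uhg5 carried 11, of which 3 had a peak, with a promoter signal of 71.9 that was thresholded in replicate 2 alone (43.9).

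Of the others among the 10 hosts, kra carried 8 and Hrb98DE 7 snoRNA genes, with none bound. The kra promoter had a ranked 99.5, and that of Hrb98DE a lower ranked region. Nop60B, the pseudouridine synthase of the H/ACA particle, carried 7 with 1 bound and had 71.1 at its promoter in the joint list alone. RpS7 carried 7 with none bound, at a promoter signal of 147 (83.9 and 58.4). Uhg4 carried 7 with 2 bound and had 279 (160 and 129). A bound promoter thus did not put a summit within 500 bp of most of its snoRNA genes, which lay up to 3138 bp from the start in RpS5a.

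**Figure D5:**
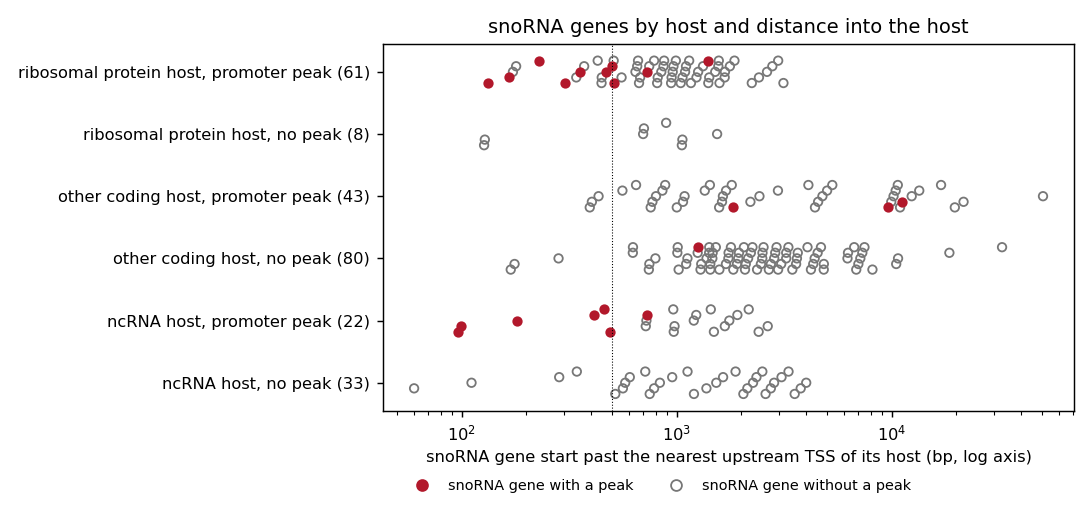
Distance of each snoRNA gene from the nearest upstream start site of its host (bp, log axis), in rows by kind of host and by whether the host promoter had a peak; filled marks are snoRNA genes with a peak. Where the host was bound, 13 of 23 genes within 500 bp (dotted line) had a peak. Each of these summits also lay within 500 bp of a host start, though not always as the host's strongest. Of 121 genes of unbound hosts, 1 had a peak.

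The protein genes that make and assemble these particles were examined beside the RNA genes. Of 77 genes found in the annotation, 20 had a promoter peak (26.0%, interval 17.5 to 36.7), against 21.6% of protein-coding genes, so the list lay near the background. Among 6 factors for snRNA and RNA polymerase III promoters, the polymerase III factors Bdp1 (462; 249 and 216 in the replicates) and Brf (365; 196 and 160) had a peak. The SNAPc subunits Pbp45, Pbp49 and Pbp95 had none, and neither did Tbp. Of 14 subunits of Integrator, which cleaves snRNA precursors, 6 had one, led by IntS11 (281), IntS6 (273), IntS9 (201) and defl (147).

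For the particle proteins, peaks lay at 2 of 12 Sm and Lsm ring genes, SmD3 (120) and SmD1 (69.8), and at 2 of 18 snRNP-specific genes, snRNP-U1-C (266) and Sf3b1 (82.3). None of 13 genes for snRNP assembly and Cajal bodies had one (interval up to 22.8%). Of the core snoRNP proteins, the methyltransferase Fib (66.4, in neither separate list) was the 1 of 4 for box C/D particles, and NHP2 (247) and Nop60B (71.1) were the 2 of 4 for H/ACA particles. Of 6 snoRNP assembly factors and chaperones, 5 had a peak, among them Pih1D1 (444), Hsp83 (440), Nopp140 (105) and rept (104).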

How the data were processed

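Chromatin immunoprecipitation was sequenced from 2 biological replicates of 1 group, with sonicated chromatin, per the labels. The authors made each peak list from alignments to dm6 and a control file, according to the readme texts deposited with the lists; the control was not analysed here. Aligner and peak caller: not given in the sources used here. Values used were the deposited signal of each peak and, for 1 alternative, the deposited score, a function of the irreproducible discovery rate (IDR). Thresholding was the authors' own, by IDR. A score of 540 was taken as an IDR of 0.05.

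Genes, starts and hosts came from Ensembl release 115 (BDGP6), the dm6 assembly, and sequences from its RefSeq copy. No test was run, since there was 1 group: counts were set beside the same count over all protein-coding genes or bases, with 95% Wilson intervals. A host was the shortest protein-coding or non-coding gene on the same strand that spanned the snoRNA gene. The search was tested on simulated peaks. Of 82 protein genes listed, 77 were found in the annotation.

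Named were every snRNA gene, the 15 snoRNA genes of highest signal, every member with a peak over 1000 bp from a coding start (1 is not reported here), the 10 hosts with most snoRNA genes, and up to 4 protein genes a group. Genes named beyond this, as examples without a peak or at the distance limit, were chosen after their values were seen. The members and lists were chosen with earlier results of these data known. Alternatives were other distances, lists and host rules, and each replicate alone. Python 3.11.15, pandas 2.3.3, numpy 2.4.6, SciPy 1.17.1 and matplotlib 3.10.9 were used.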

Additional observations from a re-analysis of the deposited data

How the results depend on the processing

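Of 42 alternative settings, 29 kept the count within 1.5 times and 13 did not. For snRNA genes, 8 with a peak became 5 among peaks at or above the median signal, and 5 to 7 with 1 replicate alone. The share by signal was 15.6%, and replicates 1 and 2 gave 21.9% and 15.6%. With the IDR loosened to 0.05 the count stayed at 8 (25.0%), while protein-coding genes reached 26.5%. The order of the 2 shares thus turned there. For snoRNA genes, 23 became 9 at 250 bp (3.35%), 70 at 1000 bp (26.0%) and 9 at or above the median signal (3.35%). The count was 37 when any base of a peak counted (13.8%), and 12 to 18 with 1 replicate (4.46% and 6.69%). Protein-coding genes gave 15.1% at 250 bp, 23.3% at 1000 bp, 11.6% by signal and 20.9% by any base. For replicates 1 and 2 they gave 14.6% and 12.0%. At 1000 bp the snoRNA share was above that of protein-coding genes. For genes over 1000 bp from coding starts, 14 became 7 at 250 bp, 30 at 1000 bp, 7 at or above the median signal, 8 of 111 when over 2000 bp was required, and 8 to 11 with 1 replicate. The shares of these distant genes were 3.32%, 14.2%, 3.32% and 7.21%, with 5.21% and 3.79% for replicates 1 and 2. Each was below the protein-coding share at the same setting. For the protein genes, 20 became 13 at or above the median signal (16.9%, against 13.6% of protein-coding genes by any start site). With replicates 1 and 2 alone they became 17 (22.1%, against 16.7%) and 14 (18.2%, against 14.2%). The 51 bound hosts kept within 1.5 times under every alternative run, from 37 to 60, with 40 to 44 for 1 replicate. The snoRNA count depends most on distance. No paired analysis was possible because there was 1 group. Depth could not be examined without read counts, and the joint list is not independent of the replicate lists.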
